A study of Homo sapiens with 4 samples.

Results

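The genes described here are those of the Wnt ligands, their receptors and coreceptors, the secreted antagonists and the feedback gene AXIN2. They were taken by symbol, with earlier results of these data known: every symbol that starts with WNT, FZD, SFRP or DKK followed by a digit, together with LRP5, LRP6, ROR1, ROR2 and AXIN2. This gave 42 genes of 22679 named loci, comprising 19 WNT genes, 10 FZD genes, 4 SFRP genes, 4 DKK genes, 2 LRP genes, 2 ROR genes and AXIN2.

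Transcript levels came from poly(A)-selected RNA of IMR90, a line of human lung fibroblasts, all at passage 16. A single library was made for each of 4 cultures. The growing culture carried the empty retroviral vector pBabe and was collected on day 13. The culture in oncogene-induced senescence (OIS) carried ER:RasV12, an oncogenic RAS that tamoxifen switches on, and received 10 nM tamoxifen over 8 days. The H3.3cs1 cultures received a retrovirus for Flag-tagged H3.3 in its cleaved form, the product of proteolytic clipping of this replacement histone, and were collected 3 days (early) and 13 days (late) after infection. OIS therefore differed from growing in vector, drug and culture time as well as in RAS. No empty-vector culture of day 3 was analysed here, so at that time the histone, the recent infection and the time in culture cannot be told apart. With 1 library a group no test was possible, and no difference below has a replicate check.

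Wnt proteins are secreted lipid-modified ligands. In the beta-catenin branch they bind a Frizzled (FZD) receptor together with LRP5 or LRP6, which stops the breakdown of beta-catenin and lets it act with TCF and LEF factors on target genes. WNT5A-type ligands act mostly through other branches, with ROR1 and ROR2 as receptors, and these guide cell polarity, migration and calcium release. SFRP proteins bind the ligands outside the cell, and DKK1 blocks the LRP coreceptors. In fibroblasts Wnt signalling is known for its part in matrix production and lung repair.

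Levels are given as FPKM, fragment counts normalised to transcript length and library size, so they can be compared between genes. Differences were taken on the scale log2(FPKM + 1), on which a low gene's change is understated, and every fold below is on that scale unless FPKM ratios are named. A gene is said to be higher or lower, or to have risen or fallen, when it differed by 2-fold or more. As a background, the same was counted over the 12183 named loci with an FPKM of at least 1 in any library. These libraries are bulk RNA, in which fewer cells of a type and less RNA per cell cannot be told apart.

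Of these loci between 63 and 87 were listed at 0 in a library, and a 0 can be a failed estimate, so it is not read as absence. From the smallest values in the tables, depth was roughly 76.3% to 96.1% of that of growing in the other libraries. An FPKM of 1 on a 2 kb transcript stood for roughly 51.2 to 64.2 fragments. HRAS, at 3153 FPKM in OIS and 41.9 to 49.8 elsewhere, matched the label of OIS. Of the H3.3 genes, H3F3B was at 229 FPKM (early) and 449.7 (late) against 90.5 and 105 without H3.3cs1, while H3F3A had its smallest values there, at 129.5 and 131.6 against 190.5 to 236. No gene was used to check early against late. All 12 fibroblast markers were at an FPKM of 1 or more in every library. Their summed level was 10869 FPKM in the growing culture and 11489 at day 13 of H3.3cs1, but 5056 in OIS and 6229 at day 3. Most of each sum came from COL1A1, COL1A2 and VIM. In OIS 0 of the 12 were higher and 6 lower than in growing, against 9.13% and 8.17% of all loci. PDGFRA went from 27.3 to 52.3 FPKM there, under 2-fold. At day 3, 1 was higher (S100A4) and 2 were lower (COL1A1 and DCN), against 1.4% and 3.96%. The part of this marker sum in the lower Wnt genes of OIS (7 of 21) and day 3 (3 of 21) was not tested. The 8 endothelial markers summed to 22.1 FPKM in OIS (4 of them at 1 or more) against 1.33 to 3.09 elsewhere. Between growing and OIS, CLDN5 went from 0.178 to 11.6 FPKM, TIE1 from 0.631 to 4.05 and ROBO4 from 1.19 to 4.47, all 3 higher, while CDH5 was listed at 0 throughout and PECAM1 was at 0.115 FPKM in OIS. The 7 leukocyte markers summed to 39.6 to 89.8 FPKM, almost all of it from the joined CD68,MPDU1 locus, while the leukocyte gene PTPRC reached at most 0.0396 FPKM. EPCAM and CDH1, which define epithelium, stayed at or under 0.495 FPKM. The keratin gene KRT18 took most of the epithelial sum, which ran from 18.5 FPKM in OIS to 184 in H3.3cs1 late. Of 4 smooth muscle markers ACTG2 and SMTN passed 1 FPKM, and the sum ran from 127 FPKM in OIS to 567 in late. The part of these other markers in the results was not tested either. Where 4 levels are given in a row below, their order is growing, OIS, early, late.

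Upstream sequence is shown for the antagonist gene DKK1 and the receptor gene ROR1, which were lower in OIS, and for the receptor gene FZD8 and the ligand gene WNT9A, which were higher there. Each stretch holds the 250 bases before the start of the gene, 5′ to 3′ on the gene's strand, from RefSeq on GRCh38.p14, whereas the expression tables were made on hg19, per the submitters' processing notes. The stretches lie at chr10:52314031-52314280 on the plus strand (DKK1), chr1:63773767-63774016 on the plus strand (ROR1), chr10:35642297-35642546 on the minus strand (FZD8) and chr1:227947933-227948182 on the minus strand (WNT9A). Capitals mark the letters CTTTGA, the core bound by TCF and LEF factors, or GGGCGG, a GC box, on either strand. The last 3 letters of CTTTGA can also begin TGANTCA, a motif searched as well.
DKK1: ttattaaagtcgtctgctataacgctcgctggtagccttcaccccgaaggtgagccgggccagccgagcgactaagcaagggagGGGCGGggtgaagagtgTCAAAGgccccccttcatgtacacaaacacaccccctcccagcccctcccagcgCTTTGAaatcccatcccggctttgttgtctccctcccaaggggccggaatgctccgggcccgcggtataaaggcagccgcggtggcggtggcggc
ROR1: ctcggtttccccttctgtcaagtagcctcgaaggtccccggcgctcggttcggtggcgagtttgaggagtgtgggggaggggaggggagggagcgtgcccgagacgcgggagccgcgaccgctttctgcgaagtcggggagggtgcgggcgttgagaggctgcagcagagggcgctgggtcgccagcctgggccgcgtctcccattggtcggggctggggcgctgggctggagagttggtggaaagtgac
FZD8: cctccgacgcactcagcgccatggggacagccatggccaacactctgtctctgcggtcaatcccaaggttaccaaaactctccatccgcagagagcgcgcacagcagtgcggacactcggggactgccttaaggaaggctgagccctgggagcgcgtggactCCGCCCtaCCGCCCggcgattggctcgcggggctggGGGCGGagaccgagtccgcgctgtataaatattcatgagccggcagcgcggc
WNT9A: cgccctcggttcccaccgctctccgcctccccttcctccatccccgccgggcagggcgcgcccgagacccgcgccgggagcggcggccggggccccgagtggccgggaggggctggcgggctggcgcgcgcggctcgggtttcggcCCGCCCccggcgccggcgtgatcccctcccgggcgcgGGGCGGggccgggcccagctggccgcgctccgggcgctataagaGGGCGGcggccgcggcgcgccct

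DKK1 held the TCF/LEF letters at 2 places, which begin 149 and 95 bases before the start, and a GC box 166 bases before it. No such letters were in the ROR1 stretch. FZD8 held 3 GC boxes (88, 80 and 52 bases before the start) and WNT9A held 3 (104, 67 and 23 bases before it). Stretches of this length were used for 28 of the members, 31 stretches in all. Members on chr8 were left out, whereas the RefSeq table of all genes keeps that chromosome. No stretch was used for FZD2, FZD6, FZD7 or SFRP1, which were lower in OIS, or for WNT7B, which was higher. WNT5B, lower in OIS as well, has stretches among the 31 that are not shown. In 1 of them GC boxes begin 132 and 63 bases before the start, and the other held none of the letters searched. The TCF/LEF letters were in 1 of the 31, that of DKK1, against 11.2% of all 35116 such stretches in the RefSeq table. The AP-1 letters TGANTCA were in 0 of the 31, against 6.57% of all. GC boxes were in 25 of the 31, against 42.6% of all. Members at 1 FPKM or more in any library had 17 of these stretches. Of the 17, 1 held the TCF/LEF letters, 0 the AP-1 letters and 12 a GC box. These matches are of letters alone and carry no statement about binding.

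Of the 42 genes, 21 came to 1 FPKM or more somewhere, among them 7 WNT genes, 7 FZD genes, LRP5, LRP6, ROR1, ROR2, SFRP1, DKK1 and DKK3. Another 14 were above 0 somewhere but stayed under 1, with AXIN2 the highest of them at 0.518 FPKM in H3.3cs1 late. SFRP2, WNT1, WNT3A, WNT6, WNT7A, WNT8A and WNT9B, 7 in all, were listed at 0 in every library. WNT2B, WNT3 and WNT7B reached 1 in a single library (late, late and OIS), so they entered the comparisons through that library alone. The filter does not alter the counts of genes past 2-fold, since a gene under 1 FPKM everywhere cannot pass that size on this scale.

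**Figure D1:**
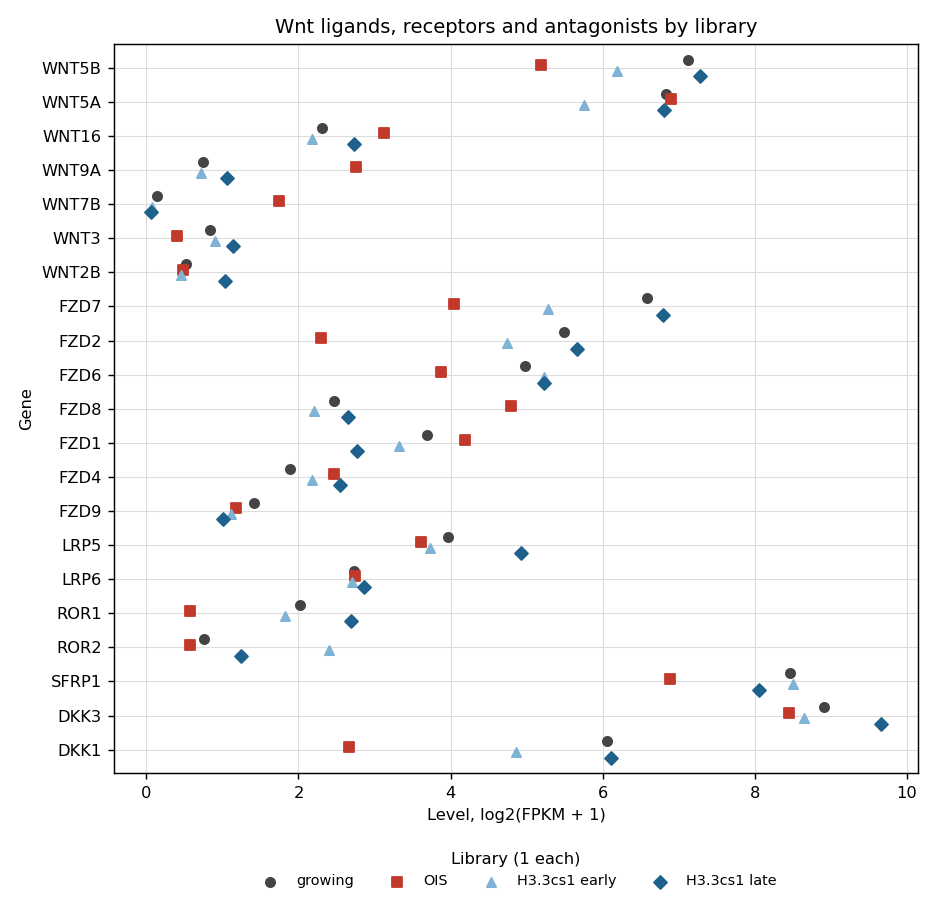
Level of the 21 genes that reached an FPKM of 1, as log2(FPKM + 1), with 1 point for each of the 4 libraries and the points of a gene offset vertically for legibility. The OIS squares lie furthest left for DKK1, FZD2, FZD7 and ROR1 and furthest right for FZD8 and WNT9A, while the growing and H3.3cs1 late points lie close together for most genes.

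In OIS, the set of Wnt genes in use was rearranged: 7 of the 21 genes were lower and 3 were higher than in growing. The largest falls were those of DKK1 (10.5-fold), FZD2 (9.18-fold) and FZD7 (5.80-fold), and the largest rise was that of FZD8 (5.02-fold). Over all loci, 8.17% were lower and 9.13% higher in the same comparison. The median difference of the 21 genes was -0.24, against 0.032 for all loci, and it was 0 over all 42. After every library was rescaled to the same sum, all of these 10 genes stayed past 2-fold, while the share of higher genes among all changed loci moved from 52.8% to 37.7% and the median of all loci to -0.16.

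The ligands shifted from a pair to a single leading gene. WNT5B was at 139 FPKM in the growing culture, 35.4 under RAS, and 71.9 and 154 at days 3 and 13 of H3.3cs1. It was lowest in OIS, 3.84-fold under growing. WNT5A, the closest relative of WNT5B, was at 113, 118, 52.9 and 111 FPKM, so growing and OIS were level and early stood apart below. WNT5A made up 43.8% of the summed FPKM of all WNT genes in growing and 69.3% in OIS, while WNT5B went from 53.8% to 20.7%. In both H3.3cs1 libraries WNT5B led, with 55.0% and 56.1%. The WNT sum itself was 258, 171, 131 and 275 FPKM.

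Ligands of other classes rose in OIS from low levels. WNT9A stood at 0.683, 5.77, 0.640 and 1.08 FPKM, which put OIS 4.02-fold above growing. WNT7B, a ligand best known from lung epithelium, was at 0.106, 2.35, 0.0512 and 0.0416 FPKM, 3.03-fold higher in OIS on the log scale and 22.1-fold as a ratio of FPKM. It passed the level filter through OIS alone. WNT16 was at 3.98, 7.73, 3.52 and 5.65 FPKM, highest in OIS without reaching 2-fold. WNT3 stayed between 0.326 and 1.20 FPKM and WNT2B between 0.369 and 1.05, both highest in H3.3cs1 late and neither past 2-fold in any comparison.

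**Figure D2:**
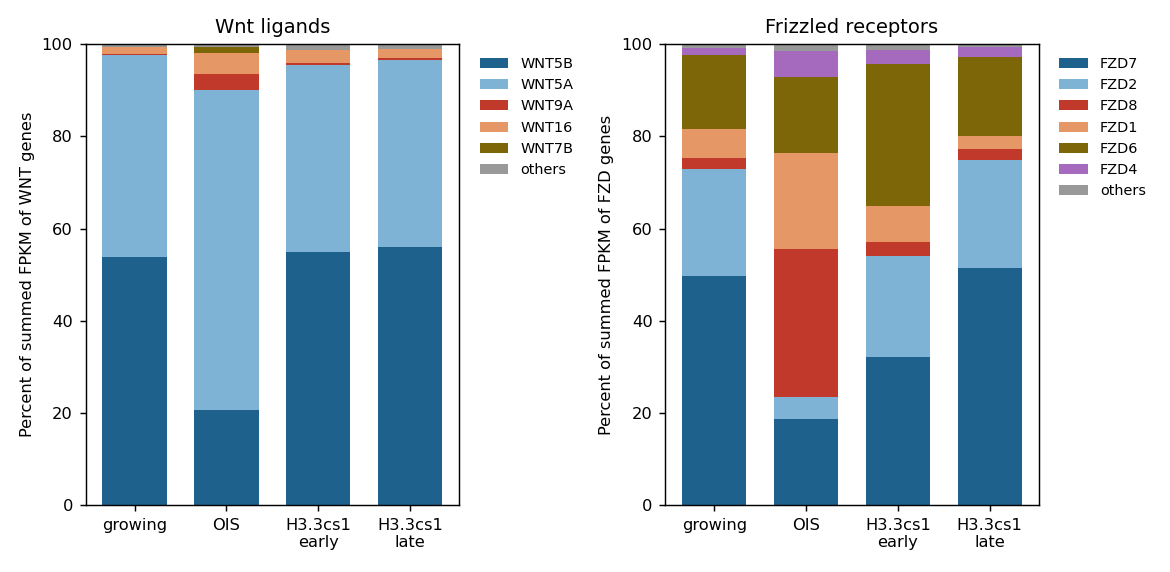
Share of each gene in the summed FPKM of its family, in percent, for Wnt ligands (left) and Frizzled receptors (right) in the 4 libraries. WNT5A takes 69.3% of the ligand sum in OIS and FZD8 takes 32.2% of the receptor sum, against 43.8% and 2.37% in growing.

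Among the receptors, FZD8 took the place of FZD7 as the highest Frizzled transcript in OIS, and FZD7 and FZD2 fell there. FZD1 in OIS was 1.40-fold above growing, under 2-fold. FZD7 stood at 94.7 FPKM in the growing culture, 15.5 under RAS, and 37.8 and 110.1 at days 3 and 13 of H3.3cs1, with OIS and early both below the other libraries. FZD2 was at 44.1, 3.92, 25.7 and 49.8 FPKM, lowest in OIS. FZD8 was at 4.51, 26.7, 3.60 and 5.26 FPKM, so OIS alone was high and the other 3 libraries lay close together. FZD1 was at 12.0, 17.2, 9.03 and 5.82 FPKM, and the highest and lowest of these, OIS and late, differed by 2.66-fold. In share of the FZD sum, FZD7 went from 49.8% to 18.7% and FZD2 from 23.2% to 4.73% between growing and OIS. Over the same pair FZD8 went from 2.37% to 32.2% and FZD1 from 6.28% to 20.7%. The sum of all FZD genes fell from 190.2 to 82.8 FPKM. FZD6, known as a receptor of the polarity branch, was at 30.4, 13.7, 36.3 and 36.5 FPKM and was 2.13-fold lower in OIS. It stands on 2 deposited lines, whose values were added, and the smaller line held 0.813 to 1.58 FPKM.

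FZD4 and FZD9 did not pass 2-fold in any comparison. FZD4 ranged from 2.72 FPKM in growing to 4.86 in late, and FZD9 from 1.01 in late to 1.67 in growing. FZD3, FZD5 and FZD10 stayed under 1 FPKM, with a highest value of 0.365 for FZD5 in early.

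The coreceptors behaved differently from each other. LRP6 varied little, at 5.65, 5.69, 5.52 and 6.27 FPKM. LRP5 was at 14.7, 11.2, 12.2 and 29.5 FPKM, highest in late, where it was 1.95-fold above growing and 2.30-fold above early. ROR1, a WNT5A receptor with a pseudokinase domain, was at 3.04, 0.494, 2.54 and 5.44 FPKM and was 2.70-fold lower in OIS. Its relative ROR2 was at 0.692, 0.493, 4.29 and 1.37 FPKM, high in early alone. The ROR genes thus had their lowest values in OIS, ROR1 its highest in late and ROR2 its highest in early.

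Of the antagonist family genes, DKK3 was the most abundant member in every library, and those that fell in OIS were SFRP1 and DKK1. SFRP1, which sequesters Wnt ligands, was at 350.1 FPKM in the growing culture, 117 under RAS, and 359.8 and 265 at days 3 and 13 of H3.3cs1, and OIS was 2.96-fold lower than growing. DKK1 was at 65.4, 5.31, 27.9 and 67.7 FPKM, with growing and late level and OIS lowest. DKK3, a DKK family member that does not act as a classical LRP blocker, was at 479.6, 347, 398 and 808 FPKM. Late stood 1.68-fold above growing and 2.33-fold above OIS. DKK2 and DKK4 stayed at or under 0.337 FPKM, and SFRP4 and SFRP5 at or under 0.0297.

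**Figure D3:**
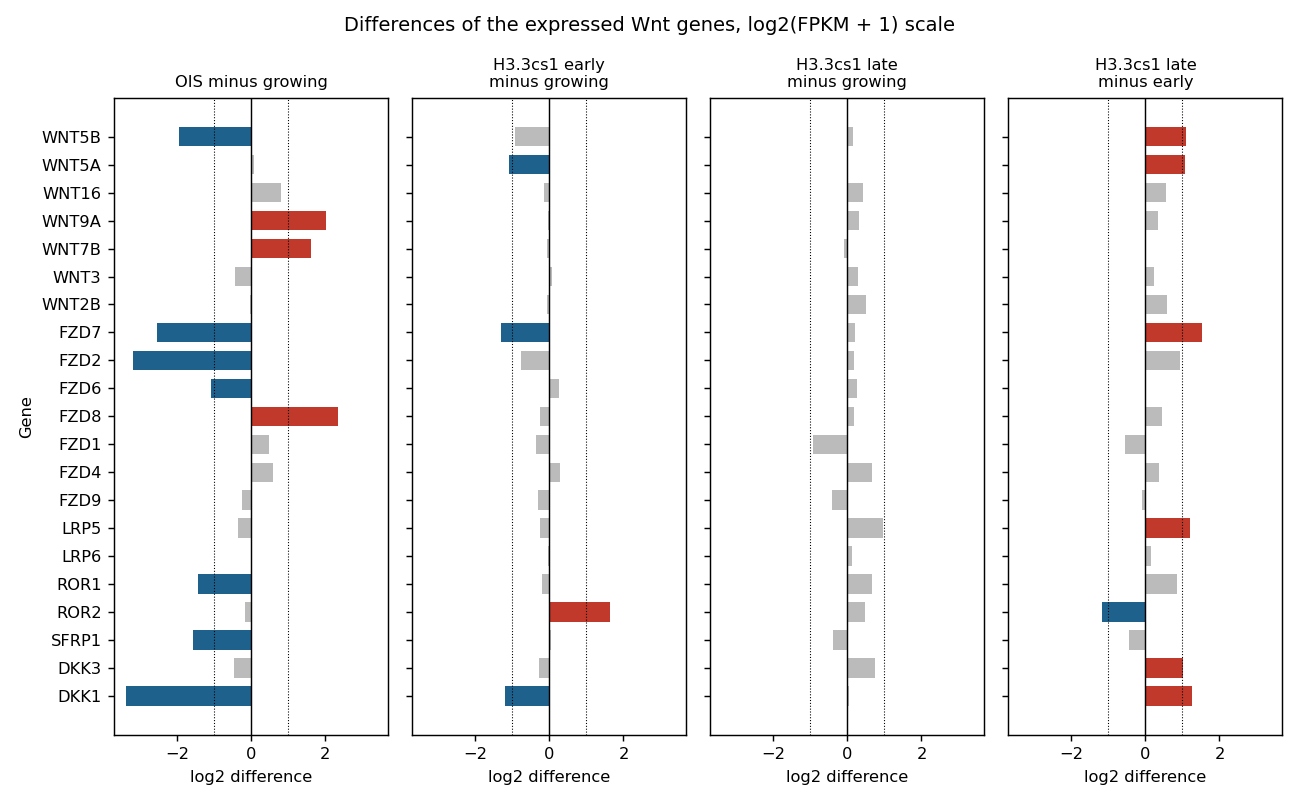
Differences on the log2(FPKM + 1) scale of the 21 genes in 4 comparisons, with dotted lines at 2-fold and bars past it coloured red (higher) or blue (lower). In OIS minus growing 10 bars pass the lines, in H3.3cs1 late minus growing none does, and the first 3 panels share the growing library.

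At day 13 of H3.3cs1, 0 of the 21 genes were higher and 0 were lower than in growing, against 3.51% and 5.47% of all loci, shares at which few of 21 genes would be counted. The differences ran from -0.93 (FZD1) to 0.96 (LRP5), both just under 2-fold, and 15 of the 21 were within 0.5. Their median was 0.22, against -0.040 for all loci, and 16 lay above 0. DKK3 (0.75), ROR1 (0.67) and FZD4 (0.66) followed LRP5, and SFRP1 (-0.40) and FZD9 (-0.41) followed FZD1. The count depended on the scale: with a pseudocount of 0.1 LRP5 and WNT2B passed 2-fold upwards and FZD1 downwards, and after centring on the median LRP5 did.

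At day 3 of H3.3cs1, FZD7 (2.46-fold), DKK1 (2.30-fold) and WNT5A (2.11-fold) were lower than in growing and ROR2 (3.13-fold) was higher. This was 3 and 1 of the 21, against 3.96% and 1.4% of all loci. The median of the 21 was -0.19, against -0.025 for all loci, and 16 lay below 0. WNT5B at 1.92-fold and FZD2 at 1.69-fold lower did not pass. After rescaling to the same sum the median of all loci rose to 0.19, and among the falls only FZD7 still passed. The share of higher genes among all changed loci then moved from 26.1% to 48.3%, and it was 38.5% with a pseudocount of 0.1. ROR2 stayed higher under all 3 rescalings, with a level of 4.29 FPKM.

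From day 3 to day 13 of H3.3cs1, FZD7 (2.86-fold), DKK1 (2.38-fold), LRP5 (2.30-fold), WNT5B (2.13-fold), WNT5A (2.08-fold) and DKK3 (2.03-fold) rose and ROR2 fell (2.23-fold). These were 6 and 1 of the 21, against 5.47% and 3.4% of all loci, with a median of 0.44 against -0.044 for all loci. This comparison shares the early library with the one above, so a low value at day 3 enters both. For DKK1, FZD7 and WNT5A the late values of 67.7, 110.1 and 111 FPKM stand beside growing values of 65.4, 94.7 and 113. After rescaling to the same sum 2 of the 6 rises were left, those of FZD7 and DKK1, and the median of all loci was -0.26. The share of higher genes among all changed loci was 36.4% then, 50.6% with a pseudocount of 0.1, and 61.7% as deposited.

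Set directly against each other, OIS and H3.3cs1 late differed in 13 of the 21 genes, 4 higher and 9 lower in OIS, against 11.2% and 8.51% of all loci. Higher in OIS were FZD8 (4.42-fold), WNT9A (3.26-fold), WNT7B (3.22-fold) and FZD1 (2.66-fold). Lower were DKK1 (10.9-fold), FZD2 (10.3-fold), FZD7 (6.74-fold), ROR1 (4.31-fold), WNT5B (4.27-fold), FZD6 (2.55-fold), LRP5 (2.50-fold), DKK3 (2.33-fold) and SFRP1 (2.25-fold). The median of the 21 was -0.67, against 0.092 for all loci. The share of higher genes among all changed loci moved from 56.8% to 41.3% after rescaling to the same sum.

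The rest of the pathway was read from 7 lists by role, whose medians stand beside those of all loci (0.032 for OIS, -0.025 for early and -0.040 for late, each against growing). Some genes stand on 2 lists. In the release of ligands, WLS, the carrier that brings Wnt proteins to the cell surface, stood out. Its level was 127 FPKM in the growing culture, 987 under RAS, and 54.8 and 127 at days 3 and 13 of H3.3cs1, so OIS was 7.72-fold higher than growing. The early value was 2.29-fold under growing, and 0.94 lower on the log2 scale after rescaling to the same sum, where it no longer passed. Of the 3 release genes at 1 FPKM or more, 1 was higher in OIS, WLS, and 0 were lower (list median 0.30), against 9.13% and 8.17% of all loci. In early 0 were higher and 1 lower, WLS (median -0.42), against 1.4% and 3.96%. In late 0 were higher and 1 lower, TRABD2A (median 0.0049), against 3.51% and 5.47%. PORCN, the enzyme that adds the lipid, shares a joined locus with EBP (24.96 FPKM in growing and 30.9 in OIS) and cannot be read alone. TRABD2A, which cuts Wnt proteins, went from 4.57 FPKM in growing to 1.77 in late, 2.01-fold lower, and did not pass after centring or quantile normalization.

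Other secreted or surface regulators moved singly. KREMEN1, a DKK1 receptor, was at 2.52, 9.21, 3.60 and 2.19 FPKM. NDP, a Frizzled 4 ligand outside the WNT family, was at 0.362, 2.51, 0.151 and 0.204 FPKM. Both were higher in OIS. This was 2 of 4 genes on a list of mainly secreted modulators, which includes the receptor gene KREMEN1, with 0 lower (median 1.13). The shares of all loci were 9.13% and 8.17%. NDP passed the level filter through OIS alone, and with the filter at FPKM 5 the count was 1 of 3, that of KREMEN1 (median 0.89). CTHRC1, a secreted Wnt cofactor, was at 18.5, 35.2, 54.3 and 18.2 FPKM, higher in early and, in OIS, 1.85-fold above growing. IGFBP4 was lower in early (446 FPKM against 996 in growing), but no longer after rescaling to the same sum (-0.90). So 1 of the 4 was higher and 1 lower in early (median 0.072), against 1.4% and 3.96% of all loci. In late 0 passed either way (median -0.085), against 3.51% and 5.47%. Of 9 other surface genes 0 were higher and 2 were lower in OIS, against the same 9.13% and 8.17%. They were APCDD1 (1.55 to 0.206 FPKM) and CAV1, caveolin, which went from 388 to 44.0 FPKM (median -0.41). In early 0 were higher and 2 lower (median -0.27), against 1.4% and 3.96% of all loci. These 2, APCDD1 and TSPAN12, were at -0.96 and -0.94 and no longer passed after rescaling to the same sum. In late 1 was higher and 1 lower, GPC4 and APCDD1 (median -0.28), against 3.51% and 5.47%, and APCDD1 was at -0.98 after centring. GPC4, a heparan sulfate proteoglycan, was at 1.15, 2.21, 0.692 and 11.8 FPKM, high in late alone. LGR4, an R-spondin receptor, was at 3.55, 1.56, 4.35 and 6.89 FPKM, and LRP4 at 2.85, 4.36, 3.34 and 1.42. The R-spondin genes RSPO1 to RSPO4 stayed at or under 0.0588 FPKM.

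In the cytoplasm and nucleus, the beta-catenin gene itself varied little, and single genes of both lists passed 2-fold in OIS. CTNNB1, its gene, stayed between 84.4 FPKM (late) and 102 (growing). Of 20 cytoplasmic genes 3 were higher in OIS and 0 lower (median 0.44), against 9.13% and 8.17% of all loci, and with libraries rescaled to equal sums 2 were higher (median 0.21). CSNK1E, casein kinase 1 epsilon, was at 50.01, 159, 33.5 and 44.8 FPKM, and DACT3 at 5.77, 16.7, 8.12 and 10.7. NKD2, a Dishevelled antagonist, was at 0.0195, 1.12 and 0.0210 FPKM in growing, OIS and early, and was listed at 0 in late, so it passed the filter through OIS alone. DACT1 was the 1 cytoplasmic gene higher in late, at 9.91 FPKM against 2.67 in growing. There 0 were lower (list median 0.13), and the shares of all loci were 3.51% and 5.47%. In early 0 cytoplasmic genes passed either way (median 0.21), against 1.4% and 3.96% of all loci.

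Of 13 nuclear partners 3 were higher and 1 lower in OIS (median 0.12), against 9.13% and 8.17% of all loci. TCF7 was at 2.05, 7.23, 1.81 and 0.364 FPKM, higher in OIS and lower in late. It was the 1 nuclear gene past 2-fold in late, where 3.51% of all loci were higher and 5.47% lower. In early 0 passed either way, against 1.4% and 3.96% of all loci. LEF1 was at 0.0711, 1.63, 0.137 and 0.0514 FPKM and passed the filter through OIS alone. The corepressor genes TLE3 (4.44, 11.1, 3.39 and 2.73 FPKM) and TLE4 (11.3, 3.94, 15.1 and 16.0 FPKM) went opposite ways in OIS. After rescaling to the same sum NKD2 and TLE3 fell under 2-fold in OIS, and the nuclear median turned to -0.11.

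Of 11 genes widely used as beta-catenin targets, 3 were higher and 1 lower in OIS (median 0.33), against 9.13% and 8.17% of all loci. LEF1, TCF7 and NKD2, the 3 that were higher, also stand on the lists above, and LEF1 and NKD2 passed the filter through OIS alone. In early 0 were higher and 3 lower (median -0.32), against 1.4% and 3.96%. In late 1 was higher and 4 were lower (median -0.37), against 3.51% and 5.47%. With libraries rescaled to equal sums, the OIS count was 2 higher and 2 lower (median 0.11) and the early count 2 lower (median -0.072). AXIN2, among the most regular targets, was at 0.371, 0.429, 0.428 and 0.518 FPKM. CCND1, cyclin D1, was at 594, 1174, 473 and 641 FPKM, and MYC at 19.7, 39.0, 20.4 and 22.2, both highest in OIS and just under 2-fold. TNFRSF19 was at 15.1, 19.3, 5.76 and 3.47 FPKM, lower in both H3.3cs1 libraries. FOSL1 was lower there too (163 FPKM in growing, 64.7 in early and 70.6 in late). BAMBI was at 5.77, 2.42, 5.43 and 16.2 FPKM, higher in late and lowest in OIS, just under 2-fold below growing. With a pseudocount of 0.1, after rescaling to the same sum and after centring, BAMBI passed 2-fold downwards in OIS. SP5 and RNF43 were listed at 0 throughout.

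Of 21 genes of the polarity and calcium branches, 3 were higher and 5 lower in OIS (median 0.0087, and -0.23 after rescaling to the same sum), against 9.13% and 8.17% of all loci. In early 1 was higher and 0 were lower, against 1.4% and 3.96%. In late 1 was higher, DAAM2, and 0 were lower, against 3.51% and 5.47%. The 1 higher in early was NFATC1, at 0.773 FPKM in growing, 3.59 in OIS and 3.22 in early, so it was higher in OIS too. PRICKLE1, a core polarity gene, was at 15.5, 0.790, 7.41 and 16.9 FPKM, 9.22-fold lower in OIS. DAAM2, a formin that links Wnt to actin, was at 2.18, 0.292, 3.89 and 9.07 FPKM, lowest in OIS and highest in late. CAMK2D, a calcium-dependent kinase, was at 28.5, 7.05, 35.1 and 25.8 FPKM. NFATC2, a calcium-responsive transcription factor, went the other way, at 0.271, 6.31, 0.155 and 0.349 FPKM, 5.76-fold higher in OIS. It too passed the filter through OIS alone.

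**Figure D4:**
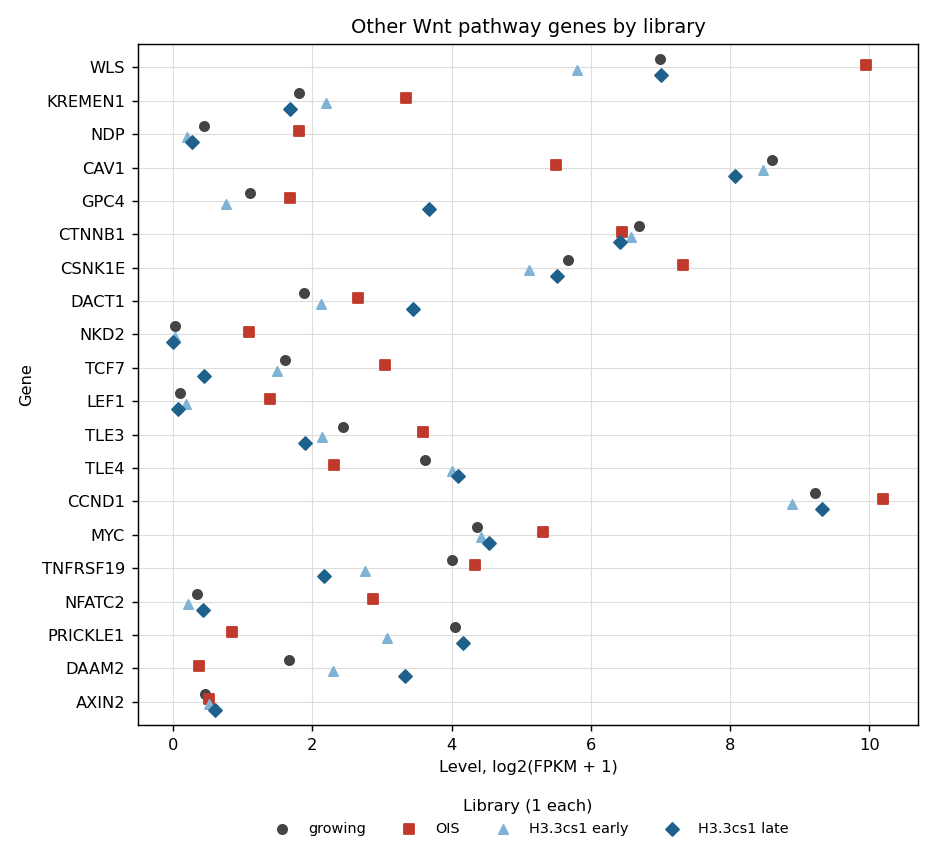
Level of 19 other Wnt pathway genes and AXIN2 as log2(FPKM + 1), with 1 point for each of the 4 libraries and the points of a gene offset vertically for legibility. WLS lies at 987 FPKM in OIS against 54.8 to 127 elsewhere, PRICKLE1 is lowest in OIS, and CTNNB1 and AXIN2 lie close together in all 4 libraries.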

How the data were processed

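RNA-seq of poly(A) RNA (TruSeq RNA v2, per the labels' protocols) was analysed in 4 IMR90 libraries, 1 a group. The authors deposited FPKM, 1 value per locus and library. Per the submitters' processing notes the build was hg19 and the tools included Cufflinks 2.1.1, TopHat2 2.0.3 and Bowtie2, without stated roles. How strand and multiply mapped reads were handled, and whether libraries were scaled to each other, is not stated there, so genes on overlapping or near-identical sequence are uncertain and depth is known only roughly. The header line of each table is shifted by 1 column against its values, and in 3 of the 4 tables it names 2 libraries over 1 column of values, so libraries were assigned by GEO's record of each table.

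The 2310 lines with no gene name were left out. Lines sharing a name were added, and joined loci kept their joined names. Differences of log2(FPKM + 1) were taken over the 12183 loci at FPKM 1 or more in any library, with Python 3.11.15 and pandas 2.3.3, and 7 processing alternatives were run. Relative depth was the commonest ratio of the smallest values. Fragment numbers used GENCODE lengths of another build.

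All members are accounted for. Values in every library are given for members at FPKM 1 or more that differed by 2-fold or more, and for the highest of each family. From each pathway list up to 4 genes past 2-fold with the largest differences are named, with CTNNB1, LEF1, TCF7, CCND1 and MYC. EBP,PORCN, APCDD1, TSPAN12, NFATC1, CELSR3,MIR4793, FOSL1, SP5, RNF43 and the RSPO genes were added after their values were seen. So were the genes in the plot of other Wnt pathway genes. The members and lists were chosen with earlier results of these data known.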

Additional observations from a re-analysis of the deposited data

How the results depend on the processing

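The 7 alternatives were a pseudocount of 0.1, no level filter, a filter at FPKM 5, rescaling to the same sum, centring on the median, quantile normalization and the highest of several lines in place of their sum. With a pseudocount of 0.1, H3.3cs1 late against growing had 2 members higher and 1 lower instead of 0 and 0, and after centring 1 higher. With the filter at FPKM 5, ROR2 was not compared, so 0 members were higher in early against growing and 0 were lower in late against early. After rescaling to the same sum, 1 member in place of 3 was lower in early, and 2 in place of 6 were higher from early to late. DKK1 (-0.95) and WNT5A (-0.83) were lost in the first, and DKK3 (0.77), LRP5 (0.97), WNT5A (0.81) and WNT5B (0.84) in the second. The named loci of early summed to 367086 FPKM, against 436428 to 517337 in the other libraries. Lines with no gene name, which were left out, held 57.9% of the summed FPKM of all lines in early and 47.4% to 49% in the others. Counts for OIS against growing were 2 or 3 higher and 7 or 8 lower under every alternative, and for OIS against late 3 or 4 higher and 9 or 12 lower. Quantile normalization left 2 of the 3 lower in early (WNT5A lost) and gave 4 in place of 6 higher from early to late (DKK3, WNT5A and WNT5B lost, ROR1 gained). No member difference of 2-fold or more changed sign under any of the 7 in which the member was compared, and sign changes of smaller differences were not counted. No paired analysis was possible because each group has 1 library. Leaving out a replicate could not be run for the same reason, and chance differences between cultures of 1 group were not measured.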

Other observations

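Among the 12183 loci compared, DKK3 ranked 137, 211, 129 and 57 by FPKM in the growing, OIS, early and late libraries. SFRP1 ranked 195, 702, 146 and 260 in the same order. WNT5A ranked 634, 697, 1227 and 676, just above SFRP1 in OIS and below it elsewhere, and WNT5B ranked 506, 2353, 847 and 483. FZD7, the highest Frizzled gene of growing, was at rank 771 there, above 93.7% of the loci, and at rank 4510 in OIS, above 63.0%. In OIS the highest Frizzled gene was FZD8, at rank 3012.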
